A study of Mus musculus with 3 samples.

Results

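The platelet-derived growth factor (PDGF) and fibroblast growth factor (FGF) ligands and receptors described here are Pdgfa, Pdgfb, Pdgfra, Pdgfrb, Fgf1, Fgf2, Fgf10, Fgfr1 and Fgfr2. They were picked out by gene symbol, and all 9 were found among the 32247 gene symbols of the matrix. The data are 1 single-cell library from the uterus of pregnant mice at pregnancy day 7.5, the stage at which the stroma around the implanted embryo is turning into decidua. Its labels give the diet as normal chow, littermate housing up to 8 weeks of age, mating with stud males, and dissociation with trypsin, but no genotype, strain or number of animals. The series lists another 2 uterus samples of the same day, with the genotypes Prl8a2icre/+ Sun1-GFPLsL/+ and Sun1-GFPLsL/+, which are not analysed here. With 1 library there is no replicate, so neither a test nor a p-value could be had, and every interval below is a 95% interval that covers counting error only.

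PDGF ligands act as dimers on a pair of receptor tyrosine kinases. PDGFRA is the receptor typical of fibroblasts and other stromal cells, and PDGFRB that of the pericytes and smooth muscle cells that coat blood vessels, which endothelium recruits by secreting PDGFB. FGF ligands act with heparan sulphate on FGF receptors, and the best known exchange between tissue layers is FGF10 made by mesenchyme acting on FGFR2 of epithelium. Both pathways signal through ERK, which induces its own inhibitors of the Sprouty and Spred families. In the implanting uterus, decidual transformation spreads through the stroma while vessels grow and the epithelium around the embryo is lost.

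After filtering, 1812 cells with 14622717 UMIs remained (a UMI, or unique molecular identifier, stands for 1 transcript captured), and the 9 genes together had 5808 of these. Clusters were made without the 9 genes and without the other genes of the pathway list, and were named from marker genes, so each name is a likeness to a cell type. The classes were undifferentiated stroma (417 cells), decidual stroma (148), pericyte-like (37), mesothelium-like (88), endothelium-like (67), epithelium-like (372), natural killer and innate lymphoid cells (313), monocytes (153), macrophages (82), T cells (42), B cells (32) and dendritic cells (26). A cluster of 35 shallow cells stayed unnamed. Tdo2, which marks decidual cells, was at 2889 and 1420 CPM in the 2 decidual clusters and at 27.3 and 36.1 CPM in the 2 undifferentiated ones. CPM is the gene's UMIs over all UMIs of the class, times 1000000. The prolactin family genes of the decidual marker set were nearly absent from the stroma, Prl3c1 with 0 UMIs and Prl8a2 with 1. The pericyte-like cluster had 15700 CPM of Rgs5 and also 1162 CPM of the smooth muscle gene Acta2, and the share of smooth muscle cells in it was not tested. The endothelium-like cluster held 1062 CPM of 5 lymphatic markers, and the mesothelium-like cluster 17731 CPM of the undifferentiated stroma markers. That summed set was at 8443 CPM in pericyte-like cells, at 2936 and 5183 CPM in the undifferentiated and at 4816 and 4914 CPM in the decidual clusters. The sum therefore does not separate the stromal classes, which differ in the decidual markers. Single markers of the set went both ways. Dpt was at 133 and 506 CPM in the undifferentiated against 4.06 and 0 CPM in the decidual clusters, and Col1a1 at 492 and 985 against 1712 and 1819 CPM.

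2 promoters are shown because both genes were highest in undifferentiated stroma and differed in how they compared with decidual stroma. Pdgfra was at nearly the same level in both classes, and Fgf10 was lower in decidual stroma. Each run is the 250 bases before a RefSeq start (GRCm38.p6), read 5′ to 3′ on the plus strand. That of Pdgfra lies at chr5:75152001-75152250 and that of Fgf10 at chr13:118714449-118714698, both outside annotated exons, and that of Fgf10 before a start inside the longer annotated gene. Capitals mark motif matches.
Pdgfra: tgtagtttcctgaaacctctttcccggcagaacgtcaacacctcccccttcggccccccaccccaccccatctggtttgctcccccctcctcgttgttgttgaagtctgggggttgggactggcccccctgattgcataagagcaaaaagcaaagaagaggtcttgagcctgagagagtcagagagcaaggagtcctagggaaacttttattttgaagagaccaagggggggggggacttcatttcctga
Fgf10: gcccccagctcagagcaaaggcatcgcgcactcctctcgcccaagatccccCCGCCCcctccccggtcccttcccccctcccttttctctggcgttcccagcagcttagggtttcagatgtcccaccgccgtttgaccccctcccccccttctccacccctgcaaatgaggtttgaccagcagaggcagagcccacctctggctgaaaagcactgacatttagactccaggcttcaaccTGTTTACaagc
Searched on both strands were TATAAA (the TATA box, in 12.4% of 32841 windows of this length), CCAAT (33.9%), the GC box GGGCGG (32.7%), the FOXO core TGTTTAC (3.17%) and the steroid receptor half-site AGAACA (16.1%). The Fgf10 window held a GC box on the minus strand, 199 bases before the start, and a FOXO core 11 bases before it. The Pdgfra window held none of the 5. A match is a description of the letters and not a measured binding site. 5 of the 9 genes had an entry in the promoter table, and Pdgfb, Pdgfrb, Fgf1 and Fgfr1 had none. The windows of Pdgfa and Fgf2 overlapped annotated exons. That of Fgfr2 did not, and it is not printed.

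The classes in which the 9 genes were highest were the 6 that are not immune cells. Pdgfa and Pdgfrb were highest in pericyte-like cells, Pdgfb in endothelium, Pdgfra, Fgf10 and Fgfr1 in undifferentiated stroma, Fgf2 in decidual stroma, Fgf1 in mesothelium and Fgfr2 in epithelium. For 4 genes over 70% of all UMIs came from 1 class: Fgf1 from mesothelium (94.5%), Fgfr2 from epithelium (94.04%), Fgf10 from undifferentiated stroma (78.7%) and Fgf2 from decidual stroma (73.0%). Levels below are compared between cells for the same gene. They are not compared between genes, because 3′ capture differs from gene to gene.

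**Figure D1:**
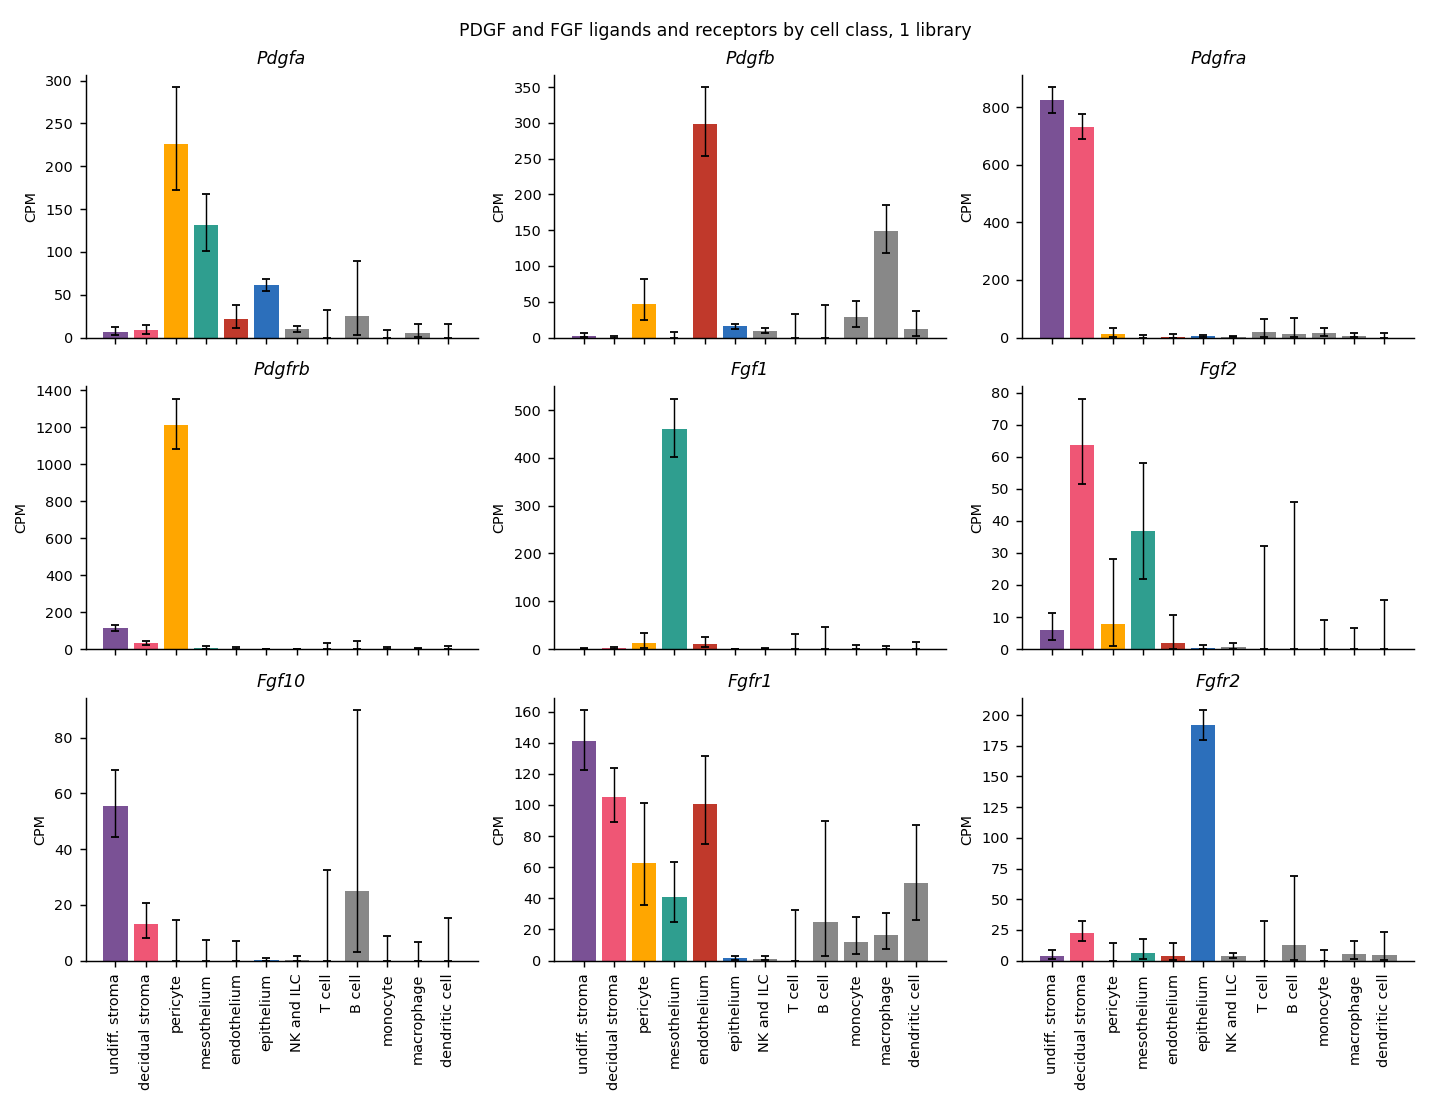
Level of each of the 9 genes in the 12 named cell classes, in CPM on an axis of its own for each gene, with bars for the summed level and lines for the exact Poisson 95% interval. Fgf1 stands in mesothelium and Fgfr2 in epithelium with little elsewhere, while Pdgfra fills both stromal classes and Fgfr1 is spread over stroma, endothelium and pericyte-like cells.

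Pdgfa (chr5:138976014-138997370, minus strand, GRCm38) encodes the PDGF-A chain, a ligand of PDGFRA. Its level was 226 CPM (172 to 292) in pericyte-like cells, 131 CPM (101 to 167) in mesothelium and 60.7 CPM (54.2 to 67.9) in epithelium. It was 21.2 CPM in endothelium, 9.71 CPM in natural killer and innate lymphoid cells, 8.31 CPM in decidual and 6.52 CPM in undifferentiated stroma. The class order was resolved at the top: pericyte-like cells were 1.73 times mesothelium (1.19 to 2.51) and mesothelium 2.15 times epithelium (1.62 to 2.83). Because epithelium is a large class it held 61.1% of all Pdgfa UMIs, against 11.4% in pericyte-like cells. Stroma, where the receptor PDGFRA lies, was therefore a low class for this ligand. Of the 37 pericyte-like cells, the 21 with a Pdgfa UMI had 2907 CPM of the summed smooth muscle markers and the 16 without had 856 CPM, at median depths of 8624 and 3849 UMIs. The part of smooth muscle cells and depth in the level was not tested.

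Pdgfb (chr15:79995874-80014977, minus strand) encodes the PDGF-B chain, which binds both receptors. It was at 299 CPM (254 to 350) in endothelium, 149 CPM (119 to 185) in macrophages, 46.8 CPM (24.2 to 81.7) in pericyte-like cells, 29.0 CPM in monocytes and 15.7 CPM in epithelium. It had 3 UMIs in undifferentiated stroma and 0 in decidual stroma and mesothelium. Endothelium exceeded macrophages 2.01-fold (1.53 to 2.65), and macrophages exceeded pericyte-like cells 3.19-fold (1.73 to 6.42). Endothelium held 40.5% of the UMIs and macrophages 21.7%. A UMI was found in 74.6% of endothelial cells and 30.5% of macrophages, and after thinning each cell to 2000 UMIs in 48.4% and 18.8%. The 25 macrophages with a UMI lacked 5 of 6 platelet markers, all but Pf4, and 6 of 9 endothelial markers. The 57 without a UMI lacked the same 5 platelet markers and also 6 endothelial markers, so this absence does not set them apart. Pf4 was found in 44.0% of those with and 28.1% of those without a Pdgfb UMI, at 770 and 1025 CPM. The summed endothelial markers were at 14.3 and 17.3 CPM. The part of platelet or endothelial RNA in the macrophage level was not tested. In pericyte-like cells the 12 UMIs came from 6 cells, of median depth 12998.5 UMIs against 4759 in the rest. An endothelial marker was found in 3 of these 6 cells and in 8 of the other 31, and the summed endothelial markers were at 56.7 and 96.8 CPM. Pecam1 and Cdh5 were at 0 in both sets, and the part of endothelial RNA in the Pdgfb level was not tested.

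Within the epithelium Pdgfb was uneven. A cluster of 49 cells led by Lcn2, Cxcl5 and Cftr had 83.1 CPM (64.0 to 106), and the other 4 epithelial clusters had 0, 3.24, 3.73 and 5.74 CPM. The 64 UMIs lay in 18 cells, 19 of them in a single cell, without which the level was 62.2 CPM. In these 18 cells 8 of 9 endothelial markers were at 0, and the summed endothelial markers were 23.7 CPM, against 12.6 CPM in the other 31 cells of the cluster. The natural killer clusters differed too: 31.8 CPM (19.9 to 48.2) in a cluster led by Ifng, 5.80 CPM (2.999 to 10.1) in one rich in granzymes and 0.952 CPM in the cycling one. The 24 cells of this class with a Pdgfb UMI had 251 CPM of the summed endothelial markers, and the 289 without had 177 CPM. An endothelial marker was found in 45.8% and 55.0% of them. The part of endothelial RNA in this Pdgfb level was not tested.

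**Figure D2:**
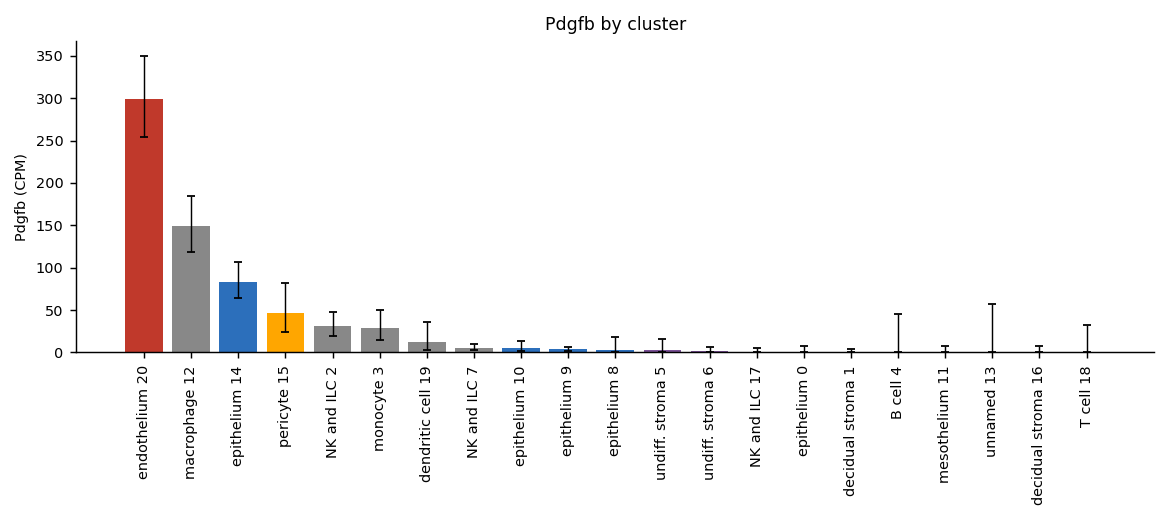
Pdgfb in CPM in each of the 21 clusters, ordered by level, with bars for the summed level and lines for the exact Poisson 95% interval. Endothelium and macrophages lead, and the epithelial cluster led by Lcn2 stands at 83.1 CPM, apart from the other 4 epithelial clusters at 0 to 5.74 CPM.

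Pdgfra (chr5:75152292-75198215, plus strand), the alpha receptor, whose promoter is printed above, was a gene of both stromal classes. It was at 823 CPM (779 to 870) in undifferentiated and 732 CPM (688 to 777) in decidual stroma, a ratio of 1.13 (1.04 to 1.22). All other named classes were at 17.5 CPM or less, on at most 27 UMIs each. Mesothelium had 0 UMIs, which allows up to 6.13 CPM at the limit of 3 counts, although the summed undifferentiated stroma markers were high in it. A UMI was found in 82.7% of undifferentiated and 89.2% of decidual cells. In epithelium, which should lack the receptor, the share was 4.30%. Median depths were 3302, 6839.5 and 6494.5 UMIs. At 2000 UMIs per cell the shares were 80.3%, 71.0% and 1.20%, so the order of the stromal classes turned around with depth and no order is read from it.

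Pdgfrb (chr18:61045150-61085061, plus strand), the beta receptor of mural cells, was at 1213 CPM (1082 to 1355) in pericyte-like cells, 113 CPM (96.6 to 131) in undifferentiated stroma and 31.2 CPM (22.7 to 41.7) in decidual stroma. Mesothelium had 6.13 CPM on 3 UMIs, and all remaining named classes had at most 2 UMIs. The steps were 10.8-fold (8.90 to 13.03) from undifferentiated stroma up to pericyte-like cells and 3.62-fold (2.59 to 5.14) from decidual up to undifferentiated stroma. After thinning, 27 of 30 pericyte-like cells, 17.1% of undifferentiated and 6.11% of decidual cells had a UMI, against 0.301% of epithelial cells. The receptors overlapped in the stroma. Of 53 thinned undifferentiated cells with Pdgfrb, 43 (81.1%, 68.0 to 90.6) also had Pdgfra, and of 257 without it 206 (80.2%, 74.7 to 84.9) did. Detection of the alpha receptor was therefore about the same with and without the beta receptor at this depth.

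Fgf1 (chr18:38838673-38929472, minus strand) encodes an FGF that binds all FGF receptors. It was at 460 CPM (402 to 524) in mesothelium, with a UMI in 75.0% of its 88 cells. Next came pericyte-like cells at 11.7 CPM on 3 UMIs and endothelium at 11.6 CPM on 6 UMIs, neighbours that were not separated (ratio 1.01, 0.163 to 4.73). Decidual stroma had 2 UMIs and undifferentiated stroma 0, which allows up to 1.96 CPM. Mesothelium exceeded the next class 39.3-fold (13.3 to 192).

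Fgf2 (chr3:37348346-37410108, plus strand), basic FGF, was at 63.7 CPM (51.4 to 78.2) in decidual stroma, 36.8 CPM (21.8 to 58.2) in mesothelium and 5.87 CPM (2.68 to 11.1) in undifferentiated stroma. Epithelium and natural killer cells had 2 UMIs each. Decidual stroma exceeded mesothelium 1.73-fold (1.04 to 3.05). Of the 92 decidual UMIs 8 lay in 1 cell, without which the level of its cluster went from 55.9 to 50.6 CPM. The ratio to mesothelium without that cell was not computed. A UMI was found in 33.8% of decidual and 1.68% of undifferentiated cells, and in 0.538% of epithelial cells. At 2000 UMIs per cell these shares were 9.92%, 0.323% and 0.301%, the last 2 on 1 cell each, so nothing is read from these. In CPM epithelium was at 0.392 (0.0475 to 1.42), below undifferentiated stroma.

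Fgf10 (chr13:118669791-118792115, plus strand) encodes the mesenchymal FGF that acts on epithelium, and the window printed above lies inside the annotated gene, before an internal RefSeq start. It was at 55.4 CPM (44.3 to 68.5) in undifferentiated stroma and 13.2 CPM (7.93 to 20.6) in decidual stroma. B cells had 24.9 CPM on 2 UMIs of 1 cell, and epithelium and natural killer cells had 1 UMI each. All other named classes were at 0. After thinning, 8.06% of undifferentiated and 3.05% of decidual cells had a UMI, and before thinning 14.6% and 6.76% did, against 0.269% of epithelial cells. The other mesenchymal ligand of epithelium on the pathway list, Fgf7, was sparse, with 26 UMIs in undifferentiated stroma (16.95 CPM, 11.1 to 24.8) and 4 in decidual stroma (2.77 CPM).

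Fgfr1 (chr8:25513654-25575718, plus strand), the receptor typical of mesenchyme, was spread over several classes. It was at 141 CPM (123 to 161) in undifferentiated stroma, 105 CPM (89.2 to 123) in decidual stroma, 100.4 CPM (75.0 to 132) in endothelium, 62.4 CPM in pericyte-like cells, 49.9 CPM in dendritic cells and 40.9 CPM in mesothelium. Of the steps among these classes the top one was resolved for counting error: undifferentiated exceeded decidual stroma 1.34-fold (1.08 to 1.66). Of the 216 UMIs in undifferentiated stroma 22 lay in 1 cell, and the ratio without that cell was not computed. Decidual stroma and endothelium were not separated (1.05, 0.761 to 1.47), nor were endothelium and pericyte-like cells (1.61, 0.904 to 3.02). In cells thinned to 2000 UMIs the order changed, with 153 CPM in endothelium and 132 CPM in undifferentiated stroma. Endothelial cells with an Fgfr1 UMI had 72.8 CPM of the summed stroma markers and those without had 69.9 CPM. Epithelium had 1.37 CPM and natural killer cells 1.05 CPM.

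Fgfr2 (chr7:130162451-133123350, minus strand), the receptor of epithelium, was at 192 CPM (180 to 204) in epithelium and 22.9 CPM (15.7 to 32.1) in decidual stroma, an 8.38-fold step (5.93 to 12.2). It was at 3.91 CPM in undifferentiated stroma and at 0 UMIs in pericyte-like cells, T cells and monocytes. The annotated gene overlaps 69 other annotated genes, 36 of them on its strand, so reads could be split or shared and its level is less certain than the others, which overlap 0 to 4 genes. The epithelial and mesenchymal splice forms cannot be told apart in 3′ counts. The epithelial clusters ranged from 93.5 CPM (73.2 to 118) in the cluster led by Lcn2 through 137, 176 and 215 CPM to 366 CPM (302 to 440) in a cluster with a median of 16.8% mitochondrial UMIs. Decidual cells with an Fgfr2 UMI had 93.1 CPM of the summed epithelial markers and those without had 220 CPM.

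The 2 stromal classes were then compared to ask which of the genes separate decidual from undifferentiated stroma. Fgf2 was 10.9-fold higher in decidual stroma (5.48 to 24.5), Pdgfrb was 3.62-fold lower (2.59 to 5.14) and Fgf10 was 4.21-fold lower (2.54 to 7.33). Pdgfra, at a ratio of 0.889 (0.818 to 0.965), and Fgfr1, at 0.748 (0.604 to 0.925), differed by less than the 2-fold that a call requires. A call needed a ratio of 2-fold or more either way, an interval clear of 1, and 50 UMIs or more over both groups. A side with 0 UMIs counted as past 2-fold. Thus 3 of the 5 genes with enough UMIs were called, where 27.1% of all 7455 genes tested were called, 8.75% higher and 18.3% lower. Fgfr2, on 39 UMIs, was not tested, and its ratio was 5.85 (2.42 to 17.1). Decidual cells were deeper (medians of 6839.5 and 3302 UMIs) and had more mitochondrial UMIs (12.2% and 4.29%), and the part of these in the result was not tested. In cells thinned to 2000 UMIs only Pdgfrb was called, since Fgf2 and Fgf10 fell below 50 UMIs.

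The clusters within each class lay the same way for these genes. Fgf2 was at 2.78 and 6.81 CPM in the 2 undifferentiated clusters and at 55.9 and 80.7 CPM in the 2 decidual ones. Pdgfrb was at 103 and 116 CPM against 32.5 and 28.4 CPM. Fgf10 was at 58.4 and 54.5 CPM against 18.3 and 2.18 CPM. In each of these genes both decidual clusters lay on the same side of both undifferentiated clusters. The same held for Fgfr1 (150 and 138 against 97.5 and 122 CPM) and Fgfr2 (5.56 and 3.41 against 25.4 and 17.5 CPM). It also held for Pdgfb, but on 1 and 2 UMIs in the undifferentiated clusters and 0 in the decidual ones. For Fgfr1, 22 of the 162 UMIs in the undifferentiated cluster at 138 CPM lay in 1 cell. The order of the clusters without that cell was not computed. Pdgfra overlapped (781 and 836 against 695 and 811 CPM), as did the sparse Pdgfa and Fgf1.

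**Figure D3:**
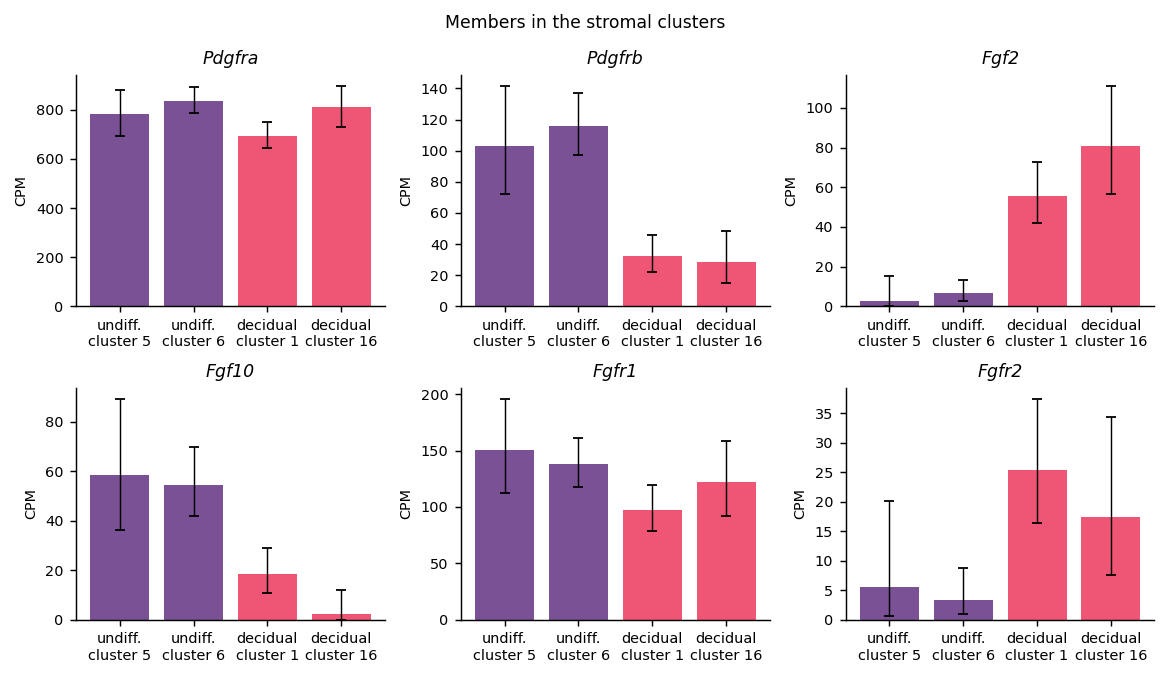
Level in CPM of 6 of the genes in the 2 undifferentiated and 2 decidual stromal clusters, with bars for the summed level and lines for the exact Poisson 95% interval. Fgf2 and Fgfr2 are higher and Pdgfrb and Fgf10 lower in both decidual clusters, and Pdgfra is nearly level at 695 to 836 CPM.

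Between the decidual clusters, one rich in Dio3 (77 cells, 854 CPM of Dio3) and one poor in it (71 cells, 34.9 CPM), none of the 3 genes tested was called, where 28.3% of 4261 genes were, 21.5% higher and 6.85% lower in the first. Fgf10 had 18 UMIs in the first and 1 in the second, a ratio of 8.38 (1.32 to 349), too few to be tested. Fgf2 was at 55.9 CPM (42.1 to 72.7) and 80.7 CPM (56.8 to 111). With a minimum of 10 UMIs 1 gene was called. Without cell filters the clusters were made anew, so the 2 decidual clusters compared need not hold the same cells. There 3 genes were called, and the direction of Fgf2 turned around (log2 ratio 1.66).

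Pericyte-like cells were set against all stroma to see how the PDGF receptors divide the mesenchyme. Pdgfrb was 16.6-fold higher (13.9 to 19.8) and Pdgfa 30.6-fold higher (18.4 to 52.5) in pericyte-like cells. Pdgfra was 66.6-fold lower (22.8 to 323, on 3 UMIs in pericyte-like cells), Fgf2 4.35-fold lower (1.17 to 36.4, on 2 UMIs) and Fgf10, with 0 UMIs, at least 2.99-fold lower. Fgfr1 had a ratio of 0.505 and was not called. 5 of 6 genes tested were called, against 20.7% of 7842 genes, 9.42% higher and 11.3% lower. The alpha and beta receptors thus lay on opposite sides of this comparison. At most 10% mitochondrial UMIs per cell took away the call of Fgf2, and 4 settings brought Fgfr1 to a call. In thinned cells Pdgfra and Pdgfrb were called, and Pdgfa, Fgf2 and Fgf10 fell below 50 UMIs.

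Endothelium against all other cells had Pdgfb 18.5-fold higher (14.99 to 22.8) and Fgfr1 3.20-fold higher (2.35 to 4.27). Pdgfra (1 UMI), Pdgfrb (1 UMI), Fgfr2 (2 UMIs) and Fgf10 (0 UMIs) were lower. For Fgf10 the call rests on 0 UMIs taken as they stand, and 3 counts would allow a fold of only 1.32, so a 2-fold difference is not shown for it. 6 of the 9 genes were called, against 28.9% of 12179 genes, 13.8% higher and 15.1% lower. The call of Fgf10 was lost with at most 10% mitochondrial UMIs per cell.

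Epithelium and stroma were compared to ask how ligands and receptors lie across the tissue boundary. Fgfr2 was 14.6-fold higher in epithelium (10.6 to 20.7), Pdgfa 8.22-fold (5.33 to 13.3) and Pdgfb 15.6-fold (5.14 to 77.0). Pdgfra was 147-fold lower (101 to 224), Fgfr1 90.1-fold (43.3 to 226), Pdgfrb 187-fold (51.1 to 1553), Fgf10 178-fold (31.3 to 7108) and Fgf2 86.6-fold (23.4 to 725), the last 3 on 2, 1 and 2 epithelial UMIs. All 8 genes tested were called, against 39.8% of 10339 genes, 16.4% higher and 23.4% lower. The Pdgfb difference came mostly from the cluster led by Lcn2, which was 22.5-fold above the other epithelium (12.9 to 41.7). In that comparison, chosen after the data were seen, Fgfr2 was 2.24-fold lower (1.76 to 2.88) and Pdgfa was not called (1.30), where 14.3% of 8257 genes were called, 9.93% higher and 4.34% lower. Cells of that cluster had median depths of 9501 UMIs against 6080 and 10.4% mitochondrial UMIs against 4.94%, whose part was not tested. The call of Fgfr2 was lost with the mean over cells and in thinned cells. Other Leiden resolutions, other cell filters and kept doublets made new clusters, of which the epithelial one with the most Lcn2 was taken. It need not hold the same cells. At resolution 0.5 Fgfr2 was higher in the cluster so taken than in other epithelium. Pdgfb was higher in the cluster with the most Lcn2 in each alternative that left 50 UMIs, and thinning and the filter at 10% mitochondrial UMIs did not. In thinned cells the epithelium had 4 calls against stroma, Pdgfra, Pdgfrb, Fgfr1 and Fgfr2.

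Mesothelium against all other cells, also chosen after the data were seen, had Fgf1 500-fold higher (287 to 954), Fgf2 4.82-fold (2.75 to 7.98) and Pdgfa 4.17-fold (3.16 to 5.43). Pdgfra, with 0 UMIs, was at least 27.4-fold lower, Pdgfb, with 0 UMIs, at least 4.42-fold, Pdgfrb 6.18-fold (2.10 to 30.1) and Fgfr2 12.0-fold (4.08 to 58.1). 7 of 9 genes were called, against 31.3% of 12179 genes, 14.8% higher and 16.5% lower. Mesothelium thus had 3 ligands higher and 0 UMIs of Pdgfra, while Fgfr1 was at 40.9 CPM on 20 UMIs. Dendritic cells also had 0 UMIs of Pdgfra, and endothelium had 1.

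The wider pathway list has 63 further genes: ligands, receptors, heparan sulphate carriers, adaptors, and feedback and ERK target genes. In decidual against undifferentiated stroma 27 had enough UMIs, of which 3 were higher and 7 lower, where 8.75% of all genes were higher and 18.3% lower. Their median log2 ratio, taken after adding 5 CPM to both sides, was −0.55, against −0.27 over all genes tested. Sulf1, which trims heparan sulphate, was 5.78-fold higher (162 and 28.0 CPM), Frs2, the adaptor of FGF receptors, 3.28-fold and Sulf2 2.12-fold. Sdc1, a syndecan, was 5.46-fold lower (13.9 and 75.6 CPM) and the feedback inhibitor Spry2 3.81-fold lower. Of the 5 feedback and ERK target genes tested 0 were higher and 3 were lower, Spry1, Spry2 and Spred1. Pdgfc, another ligand of the alpha receptor, was at 268 CPM in decidual and 140 CPM in undifferentiated stroma, a ratio of 1.91 (1.62 to 2.27), under the 2-fold rule. Between the decidual clusters 18 were tested and 4 called, where 28.3% of all genes were: Sulf1 (3.29-fold) and Sdc2 higher in the one rich in Dio3, Gpc6 (3.09-fold) and Spred1 lower.

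In pericyte-like cells against stroma 31 of the 63 were tested, 10 higher and 7 lower (all genes 9.42% and 11.3%), and their log2 ratios had a median of 0.16, against −0.04 over all genes. Sdc3 (14.4-fold) and Spry4 (10.8-fold) were the highest. Pdgfc (25.9-fold, on 2 UMIs) and Sdc4 (10.3-fold) were the lowest. Feedback and ERK target genes were higher in 5 of 7 and lower in 0. In endothelium 41 were tested, 17 higher and 9 lower, where 13.8% and 15.1% of all genes were (median 0.36 against −0.01). They were led by Hspg2, the basement membrane perlecan (15.5-fold), and the ERK target Etv1 (11.4-fold). Feedback and ERK target genes were higher in 7 of 11 and lower in 1, Spry2. Fgf9 and Gpc3 had 0 endothelial UMIs, at least 4.90-fold and 6.40-fold lower.

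In epithelium against stroma 37 were tested, 5 higher and 13 lower, where 16.4% and 23.4% of all genes were (median −0.48 against −0.18). Fgf9, a ligand of FGF receptors of mesenchyme, had 293 UMIs in epithelium and 1 in stroma, a ratio of 171 (30.4 to 6774), and Sdc4 was 7.09-fold higher. Sulf1 was 119-fold and Gpc6 32.3-fold lower. In mesothelium 41 were tested, 9 higher and 7 lower, where 14.8% and 16.5% of all genes were (median 0.11 against −0.03). They were led by Gpc3 (16.4-fold) and Fgf9 (10.2-fold), with Plcg2, Etv1 and Etv5 at 0 UMIs. In the epithelial cluster led by Lcn2, 29 were tested, 4 higher and 0 lower, where 9.93% and 4.34% of all genes were (median 0.20 against 0.18), with Sdc1 (3.56-fold) and Ext1 (2.85-fold) named by the rule.

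**Figure D4:**
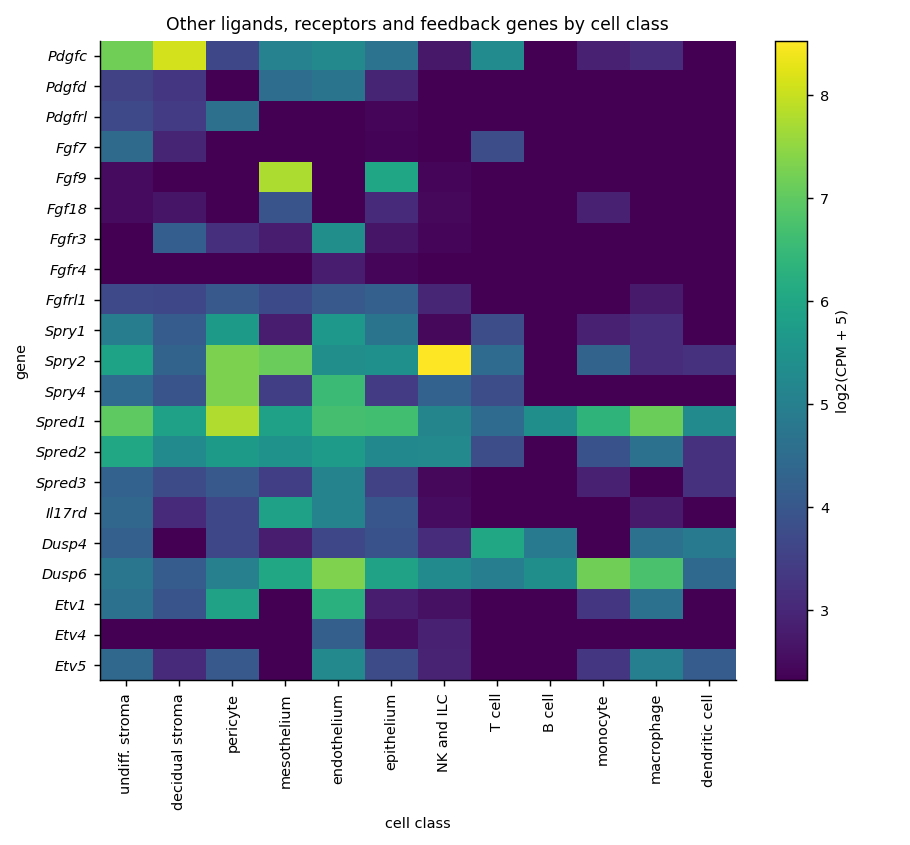
Levels of 21 genes of the wider list (PDGF ligands and decoy receptor, 3 of the FGF ligands, FGF receptors, and feedback and ERK target genes) by cell class, as colour for log2 of CPM plus a pseudocount of 5, with a row per gene and a column per class. Fgf9 stands out in mesothelium (213 CPM) and epithelium (57.4 CPM), and Pdgfc in decidual (268 CPM) and undifferentiated stroma (140 CPM).

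The genes whose pattern over the 21 clusters was most like each of the 9 were found by Pearson's r of log2(CPM + 5) among 8442 genes. It is a description: the clusters come from 1 library and differ in depth. For Pdgfra they were Sfrp4, Fst (0.97 each) and Mfap5 (0.96, itself a stroma marker). For Pdgfrb they were Gjc1 (0.92), Cacna2d1 (0.90) and Col5a1 (0.89), and for Pdgfb Pea15a (0.78), Ppp1r2 (0.77) and Apold1 (0.76). For Pdgfa they were Arhgap32 (0.88), Cryab (0.84) and Lmo7 (0.82). Cryab is in the decidual marker set, although Pdgfa was at 8.31 CPM in decidual stroma. Fgf1 was followed most closely by Cldn15 (0.98), Gpm6a (0.95, a mesothelium marker) and Lgals7 (0.94). Fgf2 was followed by Rbp4 (0.95), Ahnak2 (0.90) and Gas1 (0.89), and Fgf10 by Maob (0.89), Aox3 (0.86) and Nog (0.86). Fgfr1 had Zcchc24 (0.90), Ano10 (0.89) and Fcgrt (0.88), and Fgfr2 had Arhgef38 (0.94), Tmprss2 and Pax2 (0.93 each).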

How the data were processed

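Deposited were raw UMI counts of each gene in each barcode. Per the file headers, Cell Ranger 4.0.0 wrote them. The submitters' processing notes name mm10 as the genome. The sources used here do not name the annotation or the rule for calling cells. The 32287 features gave 32247 symbols after summing 40 that shared one. Of 2775 barcodes, with 16848794 UMIs (lowest 500, median 3225), 1825 had at least 500 genes and at most 20% mitochondrial UMIs. Scrublet, in scanpy 1.11.5, marked 13 (0.712%) as doublets at an expected 5%, which were removed, and others may remain. The 1812 cells (median 4509.5 UMIs) were clustered on 2000 variable genes, 30 components and 15 neighbours by Leiden at resolution 1 (seed 0), without the 72 pathway genes. Python 3.11.15, scipy 1.17.1 and igraph 0.11.9 were used.

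Clusters were named from 149 markers in 22 sets by mean log2(CPM + 5) over the median of clusters. Those whose best set was a stromal one were named again, by the higher of the decidual and undifferentiated scores. These scores were taken over the mean of the stromal clusters, so the stromal names are relative to each other. A cluster needed 3 markers in at least 10% of its cells, and a shallow one an own marker among its 10 leading genes. 20 of 21 clusters were named, into 12 classes. Besides classes described in the text, the monocyte cluster held 769 CPM of neutrophil markers and the unnamed cluster 4918 CPM of natural killer and innate lymphoid markers and 93.97 CPM of trophoblast markers. The B cell cluster, with Siglech, Spib and Ccr9 among its leading genes, held 5521 CPM of B cell and 622 CPM of dendritic cell markers. The macrophage cluster held 816 CPM of dendritic cell markers. Counts were summed over cells and divided by the class total, with exact Poisson intervals, conditional binomial intervals for ratios and Clopper-Pearson intervals for shares. A fold written with "at least" sets a side with 0 UMIs to 3 counts. The rule for named genes took the 9 genes, in each comparison the pathway genes with the 2 highest and 2 lowest called ratios, and 3 like genes each. Sulf2, Spry1, Fgf7, Pdgfc and the genes that name clusters were added after values were seen. The 9 genes and all lists were chosen with earlier results of these data known. Alternatives were another scaling, the mean over cells, thinning, a lower minimum, 2 other Leiden resolutions, 2 cell filters and keeping doublets. The ratio calls were tried on simulated Poisson class sums without spread between cells, which is what the intervals assume. That trial cannot show how counts gathered in a few cells affect the calls. Coordinates are GENCODE M21 on GRCm38, and promoters are from RefSeq.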

Additional observations from a re-analysis of the deposited data

How the results depend on the processing

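Each gene kept its highest class under the alternatives, except Fgfr1, which was highest in endothelium in cells thinned to 2000 UMIs. Thinning lowered the genes called from 3 to 1 in decidual against undifferentiated stroma, from 5 to 2 in pericyte-like cells, from 8 to 4 in epithelium, from 2 to 0 in the epithelial cluster led by Lcn2, and from 10 to 5 in the pathway list for decidual against undifferentiated stroma. In that comparison it called 746 of all genes in place of 2019. A minimum of 10 UMIs called 3370, raised the pathway list to 16 and brought the decidual clusters from 0 to 1. No filter on genes or mitochondrial share brought the decidual clusters to 3, with Fgf2 turned around at a log2 ratio (5 CPM added to both sides) of 1.66. The epithelial cluster with the most Lcn2 had 1 call under the mean over cells, at resolution 0.5 and at most 10% mitochondrial UMIs. At resolution 0.5 the log2 ratio of Fgfr2 was 0.32 in the cluster then taken, the other direction. The cause was not tested, except that thinning leaves fewer counts to meet the minimum and a lower minimum admits more genes. The other resolutions, the cell filters and keeping doublets also made new clusters, so the clusters compared under them need not hold the same cells.

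Scaling without mitochondrial and ribosomal protein genes moved the median log2 ratio of all genes between the stromal classes from −0.27 to −0.17, and the share of calls that were higher from 32.3% to 40.4%. Of the values of single genes that had the required UMIs under an alternative, 352 kept their direction and side of the threshold, 8 gained a call, 4 lost one and 2 turned around. Genes that fell below the minimum, as most calls missing after thinning did, are not in these counts. The decidual clusters were not compared at 10% mitochondrial UMIs, where the class was 1 cluster. No paired analysis was possible because there is 1 library and the labels number no replicates. Depth limits the sparse ligands most: Fgf10 had 108 and Fgf2 126 UMIs in all.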

Other observations

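Among the genes around the 9, the Sprouty gene Spry2, a feedback inhibitor of receptor tyrosine kinases, was highest in natural killer and innate lymphoid cells at 364 CPM (345 to 383), with a UMI in 273 of 313 cells. It was at 152 CPM in pericyte-like cells and 133 CPM in mesothelium. The same lymphoid class had 1.05 CPM of Fgfr1, 3.41 CPM of Fgfr2 and 2.36 CPM of Pdgfra. Fgfr3, a further FGF receptor, was at 36.7 CPM (22.1 to 57.3) in endothelium and 13.2 CPM (7.93 to 20.6) in decidual stroma, with 0 UMIs in undifferentiated stroma.

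The unnamed cluster of 35 cells, led by Igf2bp1, H19, Fgf15 and Hand1, had 8 UMIs of Fgf15 in 6 cells (125 CPM, 54.1 to 247) and both UMIs of Fgf3 in the library's kept cells. Its cells had a median of 1272 UMIs. Of the other named classes, pericyte-like cells had 4 Fgf15 UMIs and decidual stroma 1.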
